A study of Rattus norvegicus with 3 samples.

Results

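The CCN matricellular proteins and thrombospondins were described here as a set of 10 genes, chosen by symbol: CCN1, CCN2, CCN3, CCN4, CCN5, THBS1, THBS2, THBS4, SPARC and MGP. Of these, 8 had an entry among the 12758 gene symbols (12771 entries) in the deposited table, and THBS1 and THBS4 had none in the table used here, under the symbol or a RefSeq synonym. RNA was measured in the supernatant left when rat spinal cord was digested with a cold-active protease and its cells were pelleted, a fraction the study treats as enriched for axons. The rats were female Sprague Dawley rats of 3 months. The No-SCI animals had a laminectomy at T9 without contusion and the SCI animals had the laminectomy and a contusion of 250 kdyne, so the surgery was shared by both groups, and tissue rostral to the lesion, at T8, was taken after 24 h. By their labels, 2 libraries came from No-SCI and 1 from SCI, while the methods name 2 animals for each. The table gives 1 FPKM value per group, that is, fragments scaled by transcript length and by mapped reads. No value per library, no read count and hence no spread between animals was at hand. The ratios below are therefore descriptions of group values with no replicate check, and the members were picked with earlier results of these data known.

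Matricellular proteins are secreted into the extracellular matrix, where they bind cell surface receptors, growth factors and structural proteins rather than forming fibres themselves. CCN proteins are built from modules that resemble those of IGF-binding proteins, von Willebrand factor and thrombospondins, and act through integrins, proteoglycans and LRP receptors. CCN1 and CCN2 are textbook target genes of YAP and TAZ, coactivators that bind DNA through TEAD factors, and CCN2 is also induced by TGF-beta in fibrosis. Thrombospondins bind CD36, CD47 and integrins, and in the central nervous system those made by astrocytes promote synapse formation. SPARC is a collagen-binding protein of many tissues, and MGP is a vitamin K dependent protein that binds BMPs and keeps soft tissue from calcifying.

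The DNA just upstream of 3 of the listed members, CCN2, CCN1 and SPARC, is shown first. These were the only listed members for which a window was found. CCN5 and MGP, with the largest ratios of the set, have none, so motif numbers cannot be set against the ratios of the set. Each line gives the 250 bases before the gene start, 5′ to 3′ on the gene's strand, from RefSeq on the GRCr8 build, and the capitals mark the letters GGAATG, the core of the TEAD motif, or CATTCC, the same motif on the other strand. The windows lie at chr1:22624615-22624864 (Ccn2), chr2:237225690-237225939 (Ccn1) and chr10:40038817-40039066 (Sparc), each on the minus strand. The FPKM values were made on another build, rn6, so these positions serve for the sequence alone.
Ccn2: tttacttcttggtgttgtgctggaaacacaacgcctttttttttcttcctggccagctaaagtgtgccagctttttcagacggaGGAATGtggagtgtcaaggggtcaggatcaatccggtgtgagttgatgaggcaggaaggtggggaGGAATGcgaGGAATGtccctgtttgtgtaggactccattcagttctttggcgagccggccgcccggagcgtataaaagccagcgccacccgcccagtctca
Ccn1: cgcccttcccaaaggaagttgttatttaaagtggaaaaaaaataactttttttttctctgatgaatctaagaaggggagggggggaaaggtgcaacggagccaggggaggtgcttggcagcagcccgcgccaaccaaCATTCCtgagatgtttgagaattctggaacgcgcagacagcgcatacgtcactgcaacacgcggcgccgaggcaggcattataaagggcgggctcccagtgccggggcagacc
Sparc: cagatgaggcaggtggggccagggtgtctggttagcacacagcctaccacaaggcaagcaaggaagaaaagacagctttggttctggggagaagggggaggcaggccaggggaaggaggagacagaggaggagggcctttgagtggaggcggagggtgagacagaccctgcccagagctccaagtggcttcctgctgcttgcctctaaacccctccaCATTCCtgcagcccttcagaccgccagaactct
The Ccn2 window holds GGAATG 3 times, from bases -166, -101 and -92 before the gene start. The Ccn1 window holds it 1 time, from base -113, and the Sparc window 1 time, from base -33, both on the other strand. Among the 33469 RefSeq windows of this length, 12.1% hold the motif at least 1 time and 0.0807% hold it 3 or more times. A TATA box (TATAAA, searched on both strands, present in 12.9% of windows) starts at base -31 in Ccn2 and at base -34 in Ccn1, and the Sparc window has no such match. None of these 3 windows holds the AP-1 motif TGANTCA (6.34% of windows) or a CArG box, the motif of SRF (501 of all windows). Windows were also found for Thbs1 and Thbs4, which hold GGAATG 1 time each, but not for the other members. Such matches describe letters in the reference sequence and say nothing of binding in these samples.

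Among the CCN genes, CCN5 and CCN2 were far higher in SCI, and CCN1, CCN3 and CCN4 stayed low in both groups. CCN5, which lacks the C-terminal cystine knot of the other CCN proteins and restrains growth of smooth muscle cells, was listed at 6.13 FPKM in No-SCI and 141 FPKM in SCI. Its ratio was 23.0-fold, or 4.52 on the log2 scale. CCN2, also named connective tissue growth factor, was at 2.34 FPKM in No-SCI and 23.0 FPKM in SCI, 9.85-fold higher with a log2 ratio of 3.30. CCN2 thus went from the lower end of the table (percentile 7.74 of all symbols in No-SCI) to its middle (percentile 59.1 in SCI), and CCN5 from percentile 25.2 to 88.8. CCN1, a proangiogenic relative of CCN2, was at 1.41 FPKM in No-SCI and 1.97 FPKM in SCI, a log2 ratio of 0.49. No value in the table lies below 1, so both CCN1 values sit just above its floor. CCN3, which opposes CCN2 in several settings, was at 2.45 and 3.32 FPKM, a log2 ratio of 0.43. CCN4, a Wnt-induced member, was at 3.05 and 3.59 FPKM, a log2 ratio of 0.23. These last 3 were each higher in SCI by less than 1.5-fold.

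**Figure D1:**
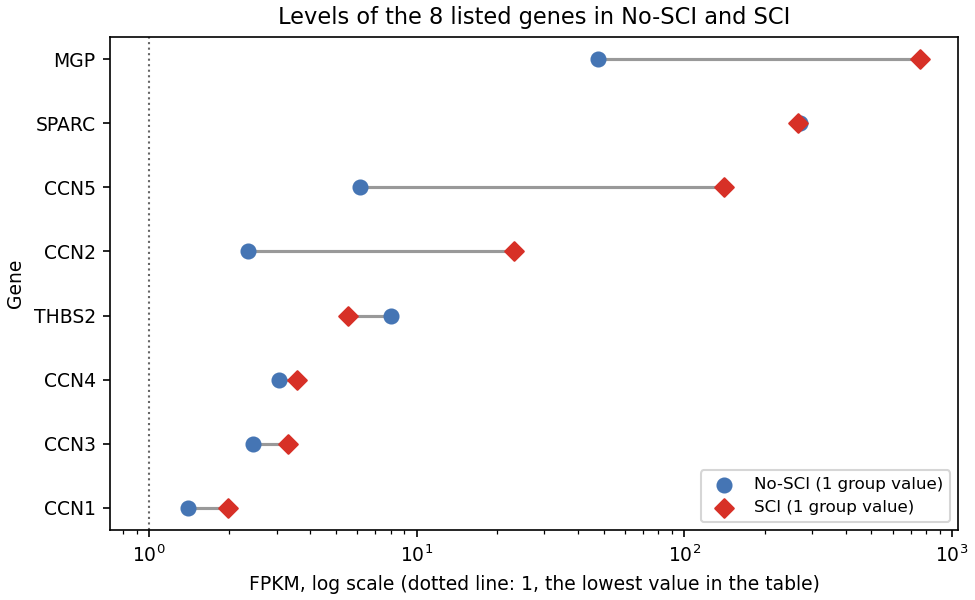
FPKM of the 8 listed genes (x axis, log scale) in No-SCI (blue circles) and SCI (red diamonds), 1 group value each without error bars because no value per library was at hand. CCN2, CCN5 and MGP are joined by long lines (2.34 to 23.0, 6.13 to 141 and 47.5 to 757 FPKM), whereas the markers of SPARC nearly coincide.

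MGP and SPARC were the most abundant members, and only the former differed between the groups by 2-fold or more. MGP was listed at 47.5 FPKM in No-SCI and 757 FPKM in SCI, a ratio of 15.9-fold and a log2 ratio of 3.99. It thereby moved from rank 3494 to rank 227 of all symbols by level. SPARC was at 271 FPKM in No-SCI and 267 FPKM in SCI, a log2 ratio of -0.02 that turns positive when the groups are scaled to the same median, upper quartile or total (0.09, 0.08 and 0.02). THBS2, a trimeric thrombospondin that inhibits angiogenesis, was the single listed thrombospondin among the members. Its values were 8.04 FPKM in No-SCI and 5.56 FPKM in SCI, which is 1.45-fold lower in SCI, a log2 ratio of -0.53. For THBS1, the thrombospondin of platelets that activates latent TGF-beta, and THBS4, a pentameric form found in tendon, muscle and injured nervous tissue, no level can be given.

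Of the 8 listed members, 3 were at least 2-fold higher in SCI and 0 at least 2-fold lower. Over all 12758 symbols, 7.93% were at least 2-fold higher and 12.1% at least 2-fold lower, or 1012 and 1538 symbols (1216 and 1224 after the median log2 ratio was centred at 0). The same 3 members, CCN2, CCN5 and MGP, were also past 8-fold (CCN2 no longer with a pseudocount of 1, at a log2 ratio of 2.85), as were 58 symbols or 0.455% of all. Ordered from the highest log2 ratio down, CCN5 ranked 5, MGP 18 and CCN2 40 among all symbols. Ratios can scatter more at low levels, so shares by level are given too. The level used is the mean of both groups, so a high SCI value alone can lift a gene into a higher band. In No-SCI, CCN2, CCN5 and MGP were at 2.34, 6.13 and 47.5 FPKM, each below its band. The shares therefore do not account for a low level in No-SCI. In the band of CCN2, with a mean of both groups from 5 to 20 FPKM, 24 of 4286 symbols (0.560%) were at least 8-fold higher. In the band of CCN5, from 20 to 100 FPKM, it was 22 of 3921 (0.561%), and in that of MGP and SPARC, at 100 FPKM or more, 12 of 1933 (0.621%). CCN1, CCN3 and CCN4 fall in the lowest band, under 5 FPKM, where 240 of 2618 symbols (9.17%) were at least 2-fold higher and 0 at least 8-fold higher. Since no value lies below 1, a mean under 5 FPKM leaves almost no room for an 8-fold ratio. This 0 therefore does not show that large ratios are absent among low genes. The median log2 ratio of the 8 members was 0.46, against -0.12 for all symbols. This median lies between genes that were far higher and genes that were close to 1-fold, and describes neither. Because the members were picked with such values in view, nothing is inferred from these counts.

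**Figure D2:**
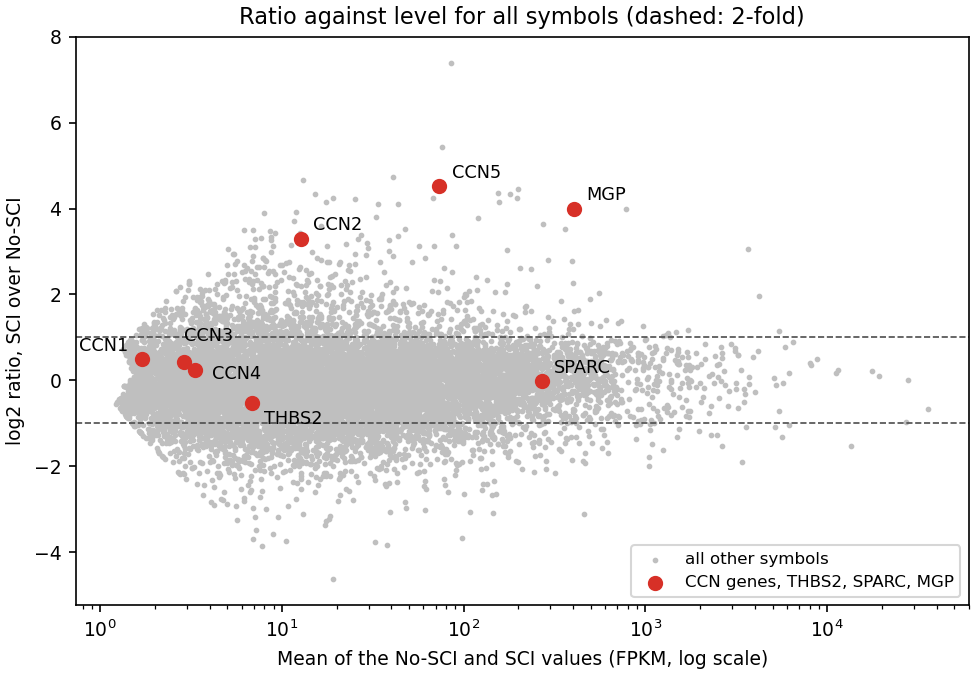
log2 ratio of SCI over No-SCI (y axis) against the mean of both group values in FPKM (x axis, log scale) for all 12758 symbols (grey) and the 8 listed members (red), with dashed lines at 2-fold. CCN5, MGP and CCN2 lie at 4.52, 3.99 and 3.30, at the upper edge of the cloud, and the other 5 members lie within the dashed lines.

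The order of the levels within the set, which FPKM allows because it is per length, also differed between the groups. In No-SCI, SPARC came first at 5.70 times the level of MGP, and MGP was 5.91 times as high as THBS2, the next gene. CCN5 followed THBS2, and below it CCN4, CCN3 and CCN2 lay close together, between 3.05 and 2.34 FPKM, with CCN1 last. In SCI, MGP came first at 2.84 times the level of SPARC. CCN5 came after SPARC, 6.11 times as high as CCN2, which in turn was 4.15 times as high as THBS2. CCN4, CCN3 and CCN1 came last. The ratio of CCN2 to CCN1 was 1.66 in No-SCI and 11.7 in SCI. Without a spread between animals, it cannot be said which neighbours in either order differ. As a further limit, the values of CCN1 in both groups, of CCN5 in SCI and of THBS2 in No-SCI are written with 7 significant digits. The others have at most 6. Of all 12758 symbols, 7474 have such a value in either group, so this is not particular to these members. What lies behind it was not tested.

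The other genes of these families were read next. CCN6, the remaining CCN gene, was at 5.35 FPKM in No-SCI and 4.43 FPKM in SCI, a log2 ratio of -0.27. COMP, the cartilage thrombospondin, was at 1.65 and 2.81 FPKM, a log2 ratio of 0.77 near the floor of the table, and THBS3 had no entry in the table used here. The SPARC family split: of its 8 listed genes 3 were at least 2-fold higher and 2 at least 2-fold lower. SMOC2, a calcium-binding matrix protein, was 8.64-fold higher (1.48 to 12.8 FPKM) and FSTL1, a secreted follistatin-like protein, 5.06-fold higher (5.14 to 26.0 FPKM). The No-SCI value of SMOC2 also lies near the floor (percentile 1.83), so the size of its ratio is uncertain. SPARCL1, or hevin, an astrocyte protein whose synaptogenic action SPARC opposes, was 2.32-fold lower (232 to 100.04 FPKM), and SPOCK3, a testican proteoglycan, was 4.30-fold lower (98.2 to 22.8 FPKM). SPARC itself stood between these at a ratio near 1.

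Of the 24 genes listed as receptors of CCN proteins and thrombospondins, 18 had an entry, of which 1 was at least 2-fold higher and 1 at least 2-fold lower. The median log2 ratio was -0.15, near that of all symbols. CD36, the scavenger receptor that binds thrombospondin type 1 repeats, was 4.38-fold higher in SCI (6.76 to 29.6 FPKM). ITGB2, the integrin beta chain of leukocytes, was 2.06-fold lower (12.2 to 5.92 FPKM), and inside 2-fold after centring (log2 ratio -0.92). The most abundant receptor genes, ITGB1 and CALR, had log2 ratios of -0.28 and -0.19. CD47, the other classical thrombospondin receptor, was at 60.3 FPKM in No-SCI and 67.7 FPKM in SCI, and was added here after its values were seen. CACNA2D1, through which thrombospondins act at synapses, ITGAV and ITGB3 had no entry in the table used here.

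Genes around YAP and TEAD were examined because CCN1 and CCN2 belong to their targets. Of 20 listed target genes, 6 were at least 2-fold higher in SCI and 0 at least 2-fold lower, with a median log2 ratio of 0.14. Without CCN1 and CCN2 the count was 5 of 18 and the median 0.08. IGFBP3, an IGF-binding protein, was 7.90-fold higher (3.27 to 25.8 FPKM), close to the ratio of CCN2, whereas PTPN14 and MYOF were 2.12-fold and 2.11-fold higher. The most abundant targets, GADD45A and RBMS3, were not higher in the deposited values, with log2 ratios of -0.76 and -0.08, and the latter turns to 0.04 after centring. Of 17 listed genes of the Hippo pathway and SRF machinery, 3 were at least 2-fold higher and 1 at least 2-fold lower. The coactivators WWTR1 (TAZ) and YAP1 were 2.62-fold and 2.25-fold higher, at 26.9 to 70.5 and 5.63 to 12.7 FPKM. The kinase gene STK4, which acts upstream of them, was 2.01-fold lower, and inside 2-fold after centring (log2 ratio -0.89). LATS1 was 1.70-fold lower. The related kinase genes STK3 and LATS2 were not lower, with log2 ratios of 0.43 (36.9 to 49.7 FPKM) and 0.11 (10.9 to 11.7 FPKM). These 2 were added here after their values were seen. In the RefSeq windows, 5 of 15 genes of the target list with a window hold GGAATG, and 1 of the 15, Ccn2, holds it 3 or more times. Over all 33469 windows, 12.1% hold it. The 15 include Ccn1 and Ccn2, and all were listed as YAP and TEAD targets, so nothing is inferred from this count.

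TGF-beta and BMP genes were read for CCN2 and MGP, which they induce and bind, respectively. Of 17 listed TGF-beta genes, 3 were at least 2-fold higher and 2 at least 2-fold lower, with a median log2 ratio of 0.31. LRRC32, which holds latent TGF-beta at the cell surface, was 4.52-fold higher (3.08 to 14.0 FPKM). LTBP3, a latent TGF-beta binding protein, was 2.07-fold lower, and inside 2-fold after centring (log2 ratio -0.93). TGFB3, the most abundant ligand, had a log2 ratio of 0.06. Of 17 listed BMP genes, 5 were at least 2-fold higher and 0 at least 2-fold lower, with 10 higher and 7 lower by any amount. Their median log2 ratio was 0.44, and 0.09 among genes with a mean of at least 5 FPKM. Among the ligands, BMP7 was 6.94-fold higher (2.04 to 14.2 FPKM) and BMP4 2.97-fold higher (28.4 to 84.3 FPKM). ID1, a direct target of BMP signals, was 4.59-fold higher, from 90.3 to 415 FPKM, and ID3 was 1.99-fold higher, from 152 to 303 FPKM. The related genes ID2 and ID4 were lower, with log2 ratios of -0.35 (69.7 to 54.6 FPKM) and -0.52 (16.3 to 11.4 FPKM). ID2 and ID4 were added here after their values were seen.

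MGP is carboxylated in a vitamin K dependent step, and 7 of 13 genes of such proteins and their enzymes had an entry. MGP was the 1 gene of these at least 2-fold higher. GGCX, the carboxylase, was 1.87-fold higher (3.59 to 6.71 FPKM), and past 2-fold after centring (log2 ratio 1.02). GAS6, a ligand of TAM receptors, was 1.82-fold higher, and PROS1, protein S, was 1.34-fold lower. BGLAP, or osteocalcin, which like MGP carries a Gla domain, was at 2.76 FPKM in No-SCI and is listed at 1 in SCI, the lowest value of the table. It was named after its values were seen.

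Other matrix genes were partly higher as well. Of 14 listed matricellular genes outside the set, 5 were at least 2-fold higher and 0 at least 2-fold lower, with a median log2 ratio of 0.41. ECM1 was 4.64-fold higher, EFEMP1 (fibulin-3) 4.55-fold, TGFBI 2.54-fold and LGALS1 (galectin-1) 2.17-fold, the last at a high level of 931 and 2024 FPKM. LGALS3 (galectin-3), the most abundant of the list, had a log2 ratio of -0.21. Of 12 listed collagen genes and their partners, 7 were at least 2-fold higher and 0 at least 2-fold lower, with a median of 1.19. COL3A1 was 4.96-fold higher (2.32 to 11.5 FPKM), COL6A2 4.18-fold and COL6A3 2.71-fold, and LOX, which crosslinks collagen, 2.34-fold. SERPINH1, the collagen chaperone and the most abundant of the list, had a log2 ratio of -0.15.

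**Figure D3:**
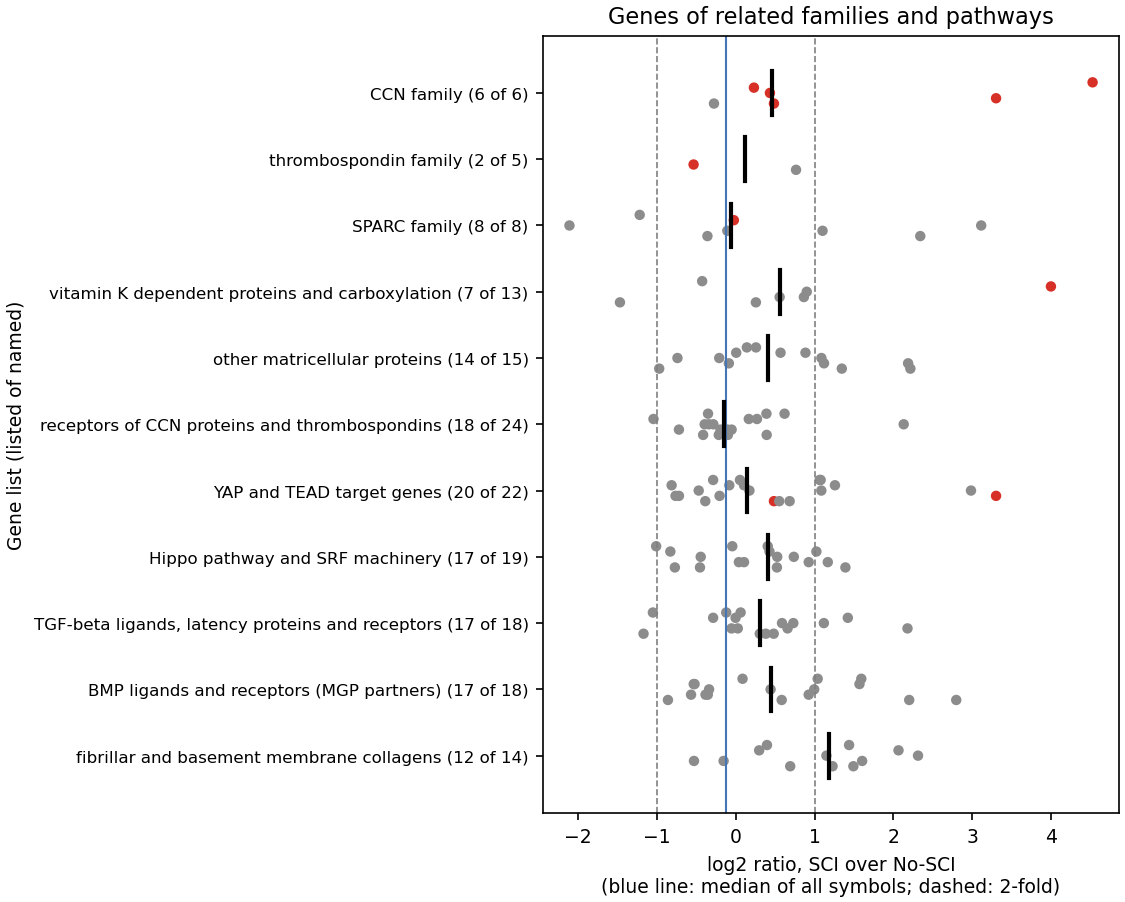
log2 ratio of SCI over No-SCI (x axis) for each listed gene of 11 families and pathways (y axis, with the number listed of the number named). Red points are members of the set, grey points other genes, black bars list medians, the blue line the median of all symbols (-0.12) and dashed lines 2-fold. The collagen list has its median at 1.19, past the dashed line, whereas the medians of the other lists lie between -0.15 and 0.56.

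Markers of the cell types that such tissue can hold were read beside the members, and those of meningeal fibroblasts were higher in SCI. Of 19 listed meningeal fibroblast markers, 13 were at least 2-fold higher in SCI and 0 at least 2-fold lower, with a median log2 ratio of 1.73. Among genes with a mean of at least 5 FPKM it was 2.44. That mean is of both groups, so a gene can pass through its SCI value alone. The larger median therefore cannot be read as a stronger rise in well-measured genes. OSR1 was 43.2-fold higher (3.43 to 148 FPKM), CRABP2 22.1-fold (17.3 to 382 FPKM), ALDH1A2 13.9-fold and PTGDS 13.8-fold. The summed level of the list was 5117 FPKM in No-SCI and 6378 FPKM in SCI. Without APOD, which makes up most of it and is also a gene of oligodendrocytes, the sum was 144 and 1218 FPKM. This list shares 3 listed genes with the collagen list and 1 with the mural list, and SLC47A1 was its 1 gene without an entry. CCN2, CCN5 and MGP are known from fibroblasts, and whether a larger share of RNA from such cells takes part in their ratios was not tested. In bulk RNA, more cells of a type and more RNA per cell cannot be told apart.

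Most endothelial and mural markers lay within 2-fold, 8 of 11 and 11 of 12 listed. Of 11 listed endothelial markers 2 were at least 2-fold higher and 1 lower, with a median log2 ratio of 0.06. Their summed level was 80.0 and 109 FPKM, or 59.2 and 63.4 FPKM without ERG. CDH5 and ERG were 3.05-fold and 2.19-fold higher, CLDN5 had a log2 ratio of -0.24, and PECAM1, TEK and TIE1 had no entry in the table used here. Of 12 listed mural markers 0 were at least 2-fold higher and 1 lower, with a median of 0.08 that is -0.13 among genes with a mean of at least 5 FPKM. Their summed levels were 629 and 764 FPKM, or 246 and 247 FPKM without TAGLN. Of 6 listed platelet markers 1 was at least 2-fold higher and 2 lower, with a median log2 ratio of -0.86 that was -1.52 with 1 subtracted from every value. A single one of them, CLEC1B, had a mean of at least 5 FPKM. CLEC1B and PF4, the latter a defining platelet gene, were 3.72-fold and 1.76-fold lower, and the list summed to 169 and 51.6 FPKM, or 14.7 and 10.2 FPKM without CLEC1B.

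Markers of astrocytes, oligodendrocytes and, by a smaller margin, neurons were mostly lower, and those of microglia and macrophages were split. Of 9 listed astrocyte markers 7 were at least 2-fold lower and 0 higher. Their summed levels were 8626 and 3545 FPKM, or 625 and 317 FPKM without NDRG2. GFAP, AQP4, SLC1A3, ALDOC and S100B had no entry in the table used here. Of 12 listed oligodendrocyte markers 9 were at least 2-fold lower and 0 higher, and MBP had no entry there. Their sums were 52653 and 30318 FPKM, or 8452 and 2670 FPKM without MOBP. Neuronal markers (11 listed) had 3 at least 2-fold lower and 0 at least 2-fold higher, with 8 lower and 3 higher by any amount. Their median log2 ratio was -0.44 and their sums were 3893 and 2922 FPKM. Without MAPT the sums were 1670 and 1690 FPKM, of which GAP43 alone made up 1275 and 1406 FPKM. Among 14 microglia and macrophage markers, 2 were at least 2-fold higher and 3 lower, with sums of 1258 and 1428 FPKM. The labelled tissue, spinal cord, is represented by MOBP, NDRG2 and MAPT, the lowest value of which was 1231 FPKM (MAPT in SCI).

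**Figure D4:**
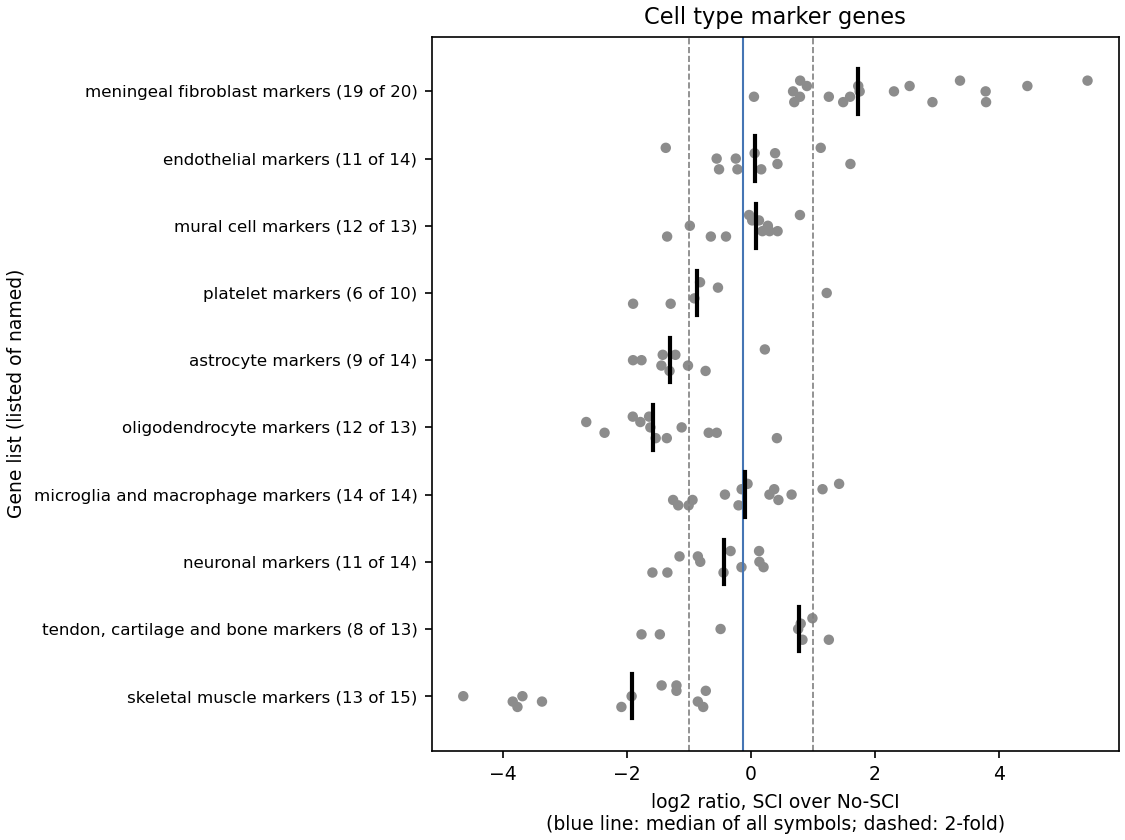
log2 ratio of SCI over No-SCI (x axis) for each listed marker gene of 10 cell types (y axis, with the number listed of the number named), with list medians as black bars, the median of all symbols in blue and 2-fold as dashed lines. All 19 listed meningeal fibroblast markers lie above 0, with a median of 1.73, while the medians of astrocyte and oligodendrocyte markers lie at -1.31 and -1.58.

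The symbols whose pair of values was most like that of CCN5, the member with the largest ratio, were sought by the distance between the log2 values in No-SCI and SCI, which rests on 2 values per gene. ISLR was the nearest, at 6.78 FPKM in No-SCI and 128 FPKM in SCI, a distance of 0.20 log2 units. ISYNA1, OSR1, CST6 and APOL3 followed at distances from 0.75 to 0.89. OSR1, a transcription factor gene, is one of the meningeal fibroblast markers above.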

How the data were processed

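Stranded total RNA libraries were made from the supernatant RNA after removal of ribosomal RNA. The authors reduced every library to the read number of the smallest one, aligned the reads to rn6 with STAR 2.5.4b and estimated FPKM per group with Cuffdiff 1.3.0 and upper quartile normalization. The deposited values are these FPKM, 1 per group, for 12771 entries with 12758 symbols. The authors' own p-values, q-values and fold changes are also in the table and were not used.

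Here the SCI value was divided by the No-SCI value on the log2 scale, with no pseudocount, with ranks, percentiles and counts past 2-fold. For the 13 symbols listed more than 1 time the entry with the larger mean was taken. The columns carry group names, and 0 measurement columns lacked a group. Since the table holds neither counts nor values per library, the depth behind a value is unknown, no test was run, and a called gene is one past 2-fold. Steps of whole reads were looked for in the 328 entries with both values between 1 and 2, which gave 320 different ratios to 4 decimals. Cuffdiff values that start at 1 (18 in No-SCI and 37 in SCI are exactly 1) understate the ratios of low genes if a constant was added.

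All members and the 21 gene lists were chosen with earlier results of these data known. Named from each list were its 2 most abundant genes and up to 4 with the largest log2 ratio in size at a mean of at least 5 FPKM, apart from genes said to be chosen after their values were seen. The 5 symbols nearest to the member with the largest ratio were named as well. Some genes that this rule names are not reported here. All 10 members matched a RefSeq symbol (GRCr8), and 5 had a promoter sequence. Alternatives were pseudocounts of 1 and 0.1, centring or scaling to the same median, upper quartile or total, summed entries, a mean of at least 5 FPKM, folds of 1.5 and 4, list means, and, chosen after the values were seen, 1 taken off every value. The counting step was tested on simulated data with 200 changed genes among 12758. Python 3.11.15, numpy 2.4.6, pandas 2.3.3 and matplotlib 3.10.9 were used.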

Additional observations from a re-analysis of the deposited data

How the results depend on the processing

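CCN2, CCN5 and MGP stayed at least 4-fold higher in SCI under the pseudocounts, scalings, summed entries, filter on low values and subtraction tried, and the count of members at least 2-fold higher was 3 in each of these except the subtraction. The filter does not change a ratio, and CCN2 passed it through its SCI value alone. Subtracting 1 from all values, tried after seeing the data, moved CCN1 from 0.49 to 1.25 and CCN2 from 3.30 to 4.04 on the log2 scale, so that 4 members were past 2-fold. The lowest log2 ratio of CCN2 was 2.85, with a pseudocount of 1. The log2 ratio of CCN5 ran from 4.31 to 4.77, that of MGP from 3.97 to 4.11 and that of THBS2 from -0.63 to -0.42. Centring moved every log2 ratio up by 0.12, upper quartile scaling by 0.10 and total scaling by 0.05, which turned the sign of SPARC. A fold of at least 1.5 called 2153 symbols higher and 3355 lower, and a fold of at least 4 called 215 and 154. Of 189 alternative values of list medians, 9 moved by 1.5 times or more, and 4 of the 21 lists changed the sign of their median under at least 1 alternative. No paired analysis was possible because the table holds 1 value per group and the replicate numbers of the groups are not shared, and no replicate could be left out for the same reason. Levels given as a share of the group total change by the same shift as the total scaling. The depth behind the values is unknown, and CCN1, CCN3, CCN4 and the No-SCI value of CCN2 lie between 1.41 and 3.59 FPKM.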

Other observations

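Skeletal muscle markers and skeletal tissue markers were also listed. Of 13 listed muscle markers, 10 were at least 2-fold lower in SCI and 0 at least 2-fold higher, with a median log2 ratio of -1.92. It was -3.37 among genes with a mean of at least 5 FPKM and -3.24 with 1 subtracted from every value. The mean is that of both groups, so a gene can pass this filter through its No-SCI value alone. MB, myoglobin, was 24.9-fold lower (36.5 to 1.47 FPKM), MYL1 14.3-fold and ACTA1 13.6-fold, and the list summed to 463 FPKM in No-SCI and 61.7 FPKM in SCI. Of 8 listed tendon, cartilage and bone markers, COMP and BGLAP among them, 1 was at least 2-fold higher and 2 lower. By any amount, 5 were higher and 3 lower, with a median log2 ratio of 0.79 and a mean of 0.12. ALPL, alkaline phosphatase, was 2.40-fold higher (3.34 to 8.01 FPKM), and SOX9, which astrocytes also express, was 3.39-fold lower (33.1 to 9.77 FPKM).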
